A study of Homo sapiens with 4 samples.

Results

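The zinc finger genes of human chromosome 19 were followed in Jurkat cells, an established human T lymphoblast line, treated with the BET bromodomain inhibitor JQ1 and the mitogen phytohaemagglutinin (PHA). Members were chosen by a rule of name and place, with earlier results of these data known. It took every gene whose symbol is ZNF, a number and at most 1 further letter, and whose locus lies on chromosome 19. The rule found 262 of the 50868 genes in the files. A further 295 genes with such names lie on other chromosomes and 2424 other genes lie on chromosome 19, and both sets were used for comparison.

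Most of these genes code for KRAB zinc finger proteins, in which an array of C2H2 fingers reads DNA and a KRAB domain near the start of the protein recruits the co-repressor TRIM28 (KAP1). TRIM28 brings the histone methyltransferase SETDB1 and HP1 proteins, and the bound site is packed into silent chromatin. Many family members bind transposable elements, and the genes arose by repeated tandem duplication, so that they lie in clusters of related sequence. BET proteins bind acetylated histones at active promoters and enhancers and are displaced by JQ1.

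All cells were wild-type Jurkat cells treated for 24 h, and each of the 4 conditions had 1 library. The DMSO cells received the vehicle, the JQ1 cells 0.5 μM JQ1, the DMSO + PHA cells vehicle and 150 ng/ml PHA, and the JQ1 + PHA cells 0.5 μM JQ1 and 150 ng/ml PHA. With 1 library per condition no difference could be tested against replicate spread, so values are described and intervals cover counting error only. The libraries held 18815190 (DMSO), 19677571 (JQ1), 19685401 (DMSO + PHA) and 18620954 (JQ1 + PHA) counted reads.

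The labels were checked against known genes. All 12 T cell markers had a mean of at least 1 FPKM, the fragment count scaled by gene length and library size, although their summed level ran from 176 FPKM in JQ1 to 609 FPKM in DMSO + PHA and all 12 were lower with JQ1 in both comparisons. Of the 4 B cell markers 1 reached that mean, and none of the 11 myeloid, erythroid and epithelial or stromal markers did. HEXIM1, an inhibitor of the elongation factor P-TEFb that responds to BET inhibitors, had 36.2, 109, 34.6 and 104 FPKM in DMSO, JQ1, DMSO + PHA and JQ1 + PHA. MYC was at 0.629, 1.55, 0.918 and 2.72 FPKM in the same order. The paper cites reports that JQ1 targets MYC in cancer cells, but here MYC was higher in both JQ1 libraries. The activation genes EGR1 and CD69 were at 0.491 and 1.05 FPKM in DMSO and at 39.9 and 20.4 FPKM in DMSO + PHA. In JQ1 they were at 0.405 and 0.766 FPKM and in JQ1 + PHA at 6.845 and 3.144 FPKM.

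The promoters of the 4 members that lay past 2-fold in the same direction in both JQ1 comparisons are shown, since these are the members whose ratio was seen in separate pairs of libraries. Each runs from 250 bases before to 50 bases after the RefSeq start (GRCh38.p14), 5′ to 3′ on the strand of the gene, with ZNF527 and ZNF780A higher and ZNF121 and ZNF101 lower with JQ1. Capitals mark matches, on either strand, to any of the 8 motifs searched, which were TCTCGCGA (bound by BANP), AAGATGGC (the core bound by YY1), CCGGAA (the core bound by ETS factors), GCGCATGC (the core bound by NRF1), the CCAAT box CCAAT, the TATA box TATAAA, the E-box CACGTG and the GC box GGGCGG.
ZNF527 (chr19:37370849-37371148, plus strand): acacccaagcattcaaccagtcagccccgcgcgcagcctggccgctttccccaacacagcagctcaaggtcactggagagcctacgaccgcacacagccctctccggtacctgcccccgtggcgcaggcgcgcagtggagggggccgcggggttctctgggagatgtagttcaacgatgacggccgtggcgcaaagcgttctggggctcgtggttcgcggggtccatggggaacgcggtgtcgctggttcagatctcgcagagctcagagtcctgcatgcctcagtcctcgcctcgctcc
ZNF780A (chr19:40090894-40091193, minus strand): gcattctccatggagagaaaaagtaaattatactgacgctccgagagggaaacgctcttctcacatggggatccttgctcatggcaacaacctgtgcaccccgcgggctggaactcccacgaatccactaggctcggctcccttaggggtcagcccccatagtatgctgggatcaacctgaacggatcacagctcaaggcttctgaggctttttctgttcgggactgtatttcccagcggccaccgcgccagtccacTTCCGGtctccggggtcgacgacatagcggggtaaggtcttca
ZNF121 (chr19:9584455-9584754, minus strand): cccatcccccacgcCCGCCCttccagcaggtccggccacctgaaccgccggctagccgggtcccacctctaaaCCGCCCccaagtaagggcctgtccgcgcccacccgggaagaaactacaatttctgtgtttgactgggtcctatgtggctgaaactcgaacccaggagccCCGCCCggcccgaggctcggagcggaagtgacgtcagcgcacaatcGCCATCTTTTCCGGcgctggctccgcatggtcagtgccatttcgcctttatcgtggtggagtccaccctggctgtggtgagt
ZNF101 (chr19:19668589-19668888, plus strand): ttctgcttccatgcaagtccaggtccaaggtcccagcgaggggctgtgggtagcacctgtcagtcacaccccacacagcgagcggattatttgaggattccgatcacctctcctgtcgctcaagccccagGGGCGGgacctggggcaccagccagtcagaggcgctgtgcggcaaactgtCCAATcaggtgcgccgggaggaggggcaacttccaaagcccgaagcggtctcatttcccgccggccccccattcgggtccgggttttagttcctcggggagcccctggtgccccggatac

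The ZNF121 promoter held 5 matches, the ZNF101 promoter 2, the ZNF780A promoter 1 and the ZNF527 promoter 0. In ZNF121 the AAGATGGC match (as written on the reverse strand) began 32 bases before the start and adjoined a CCGGAA match 24 bases before it. The 3 GGGCGG matches of ZNF121 began 236, 177 and 78 bases before the start. No matches overlapped in these windows. A match is a run of letters and not a shown binding site.

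Across the 215 members with a RefSeq promoter, CCGGAA was common: 56.3% of members held it, against 17.2% of all 35116 promoters, 21.2% of 22199 protein-coding promoters and 44.9% of the ZNF promoters on other chromosomes. CCAAT was in 53.5% of members, 34.6% of all promoters and 43.5% of the ZNF promoters on other chromosomes. GGGCGG was in 67.9% of members and 45.0% of all promoters, with 56.3% of protein-coding and 59.3% of the other ZNF promoters. AAGATGGC was in 6.51% of members, 2.89% of all promoters and 2.80% of the other ZNF promoters. TATAAA was in 1.86% of members, 11.5% of all promoters and 4.21% of the other ZNF promoters. The remaining motifs were held by 4.19% of members and 7.26% of all promoters for CACGTG, by 4.19% and 3.05% for GCGCATGC and by 1.40% and 1.15% for TCTCGCGA. In the other ZNF promoters their shares were 6.07%, 7.01% and 0.935%. The 63 measured members with CCGGAA had a median log2 ratio of JQ1 against DMSO of 0.28 and the 48 without it 0.11. For PHA alone the medians were 0.14 and 0.19, and for JQ1 with PHA present 0.01 and -0.10. Other motifs split JQ1 against DMSO at least as far, on few members. The medians were -0.15 for 7 members with AAGATGGC and 0.19 for 104 without it. They were 0.60 for 4 members with TATAAA and 0.14 for 107 without it. No such split was tested.

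The proteins were described from the GENCODE 44 transcripts. Of the 262 members, 245 are protein-coding there and 17 are not. The translated proteins were 170 to 1346 residues long with a median of 577, and carried 1 to 36 C2H2 fingers with a median of 12. A KRAB A box pattern was found in 182 of the 245 proteins (74.3%).

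Members passed the level filter more often than genes as a whole, but mostly at low levels. Taking a mean of at least 1 FPKM over the 4 libraries as measured, 122 members (46.6%) were measured, against 22.6% of all genes. The share was 57.3% for the ZNF genes elsewhere and 26.3% for the other genes of chromosome 19. Of the 140 members not measured, 57 had at most 3 counts in every library, 34 of these with 0 counts in all libraries, and 83 had more than 3 counts somewhere. Only 16 members reached a mean of 5 FPKM. The median of the mean level was 2.47 FPKM for measured members and 4.96 FPKM for all 11503 measured genes. These levels depend on the gene lengths behind the FPKM, and with GENCODE 44 exon lengths 153 members were measured. The members together took 0.3796% of counts in DMSO, 0.4055% in JQ1, 0.4246% in DMSO + PHA and 0.3950% in JQ1 + PHA. Sequence is shared within the family: 73 members, 31 of them measured, share more than 10% of their 50-base words with another annotated gene, and the counting of their reads is uncertain.

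The highest member was ZNF146, a protein made of zinc fingers only, at 34.8 FPKM in DMSO, 29.5 in JQ1, 37.6 in DMSO + PHA and 27.7 in JQ1 + PHA. Both JQ1 libraries lay below both libraries without JQ1. ZNF121 followed with a mean of 14.0 FPKM, and ZNF428, a protein with 1 finger by the pattern used, with 12.8. ZNF428 kept close to its mean, at 13.8, 12.5, 12.4 and 12.6 FPKM in the same order. ZNF100 and ZNF700 came next, with means of 8.06 and 7.85 FPKM.

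JQ1 against DMSO asked what the inhibitor did in cells not given PHA. A gene was called past 2-fold when the log2 ratio of FPKM + 0.1 was at least 1 in size, which understates the change of low genes. By that rule 5 members (4.10%) were higher with JQ1, where 5.22% of all measured genes were, and 6 members (4.92%) were lower, where 8.65% of all measured genes were. The median log2 ratio of the 122 members was 0.19, with quartiles of -0.25 and 0.56, and that of all measured genes was -0.01. The other genes of chromosome 19 had a median of -0.15 and the ZNF genes elsewhere 0.10. The 95% interval of the ratio of count shares lay above 0 for 62 members (50.8%; 36.9% of all measured genes) and below 0 for 32 members (26.2%; 38.7% of all measured genes).

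The same question with PHA present compared JQ1 + PHA with DMSO + PHA, a pair that shares no library with the first. Here 6 members (4.92%; 3.69% of all measured genes) were higher and 5 (4.10%; 8.0% of all measured genes) lower. The median of the members was -0.05 and that of all measured genes -0.02. Intervals lay above 0 for 37 members (30.3%; 34.6% of all measured genes) and below 0 for 46 (37.7%; 38.2% of all measured genes). The positive median of the first comparison was thus not seen in the second.

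**Figure D1:**
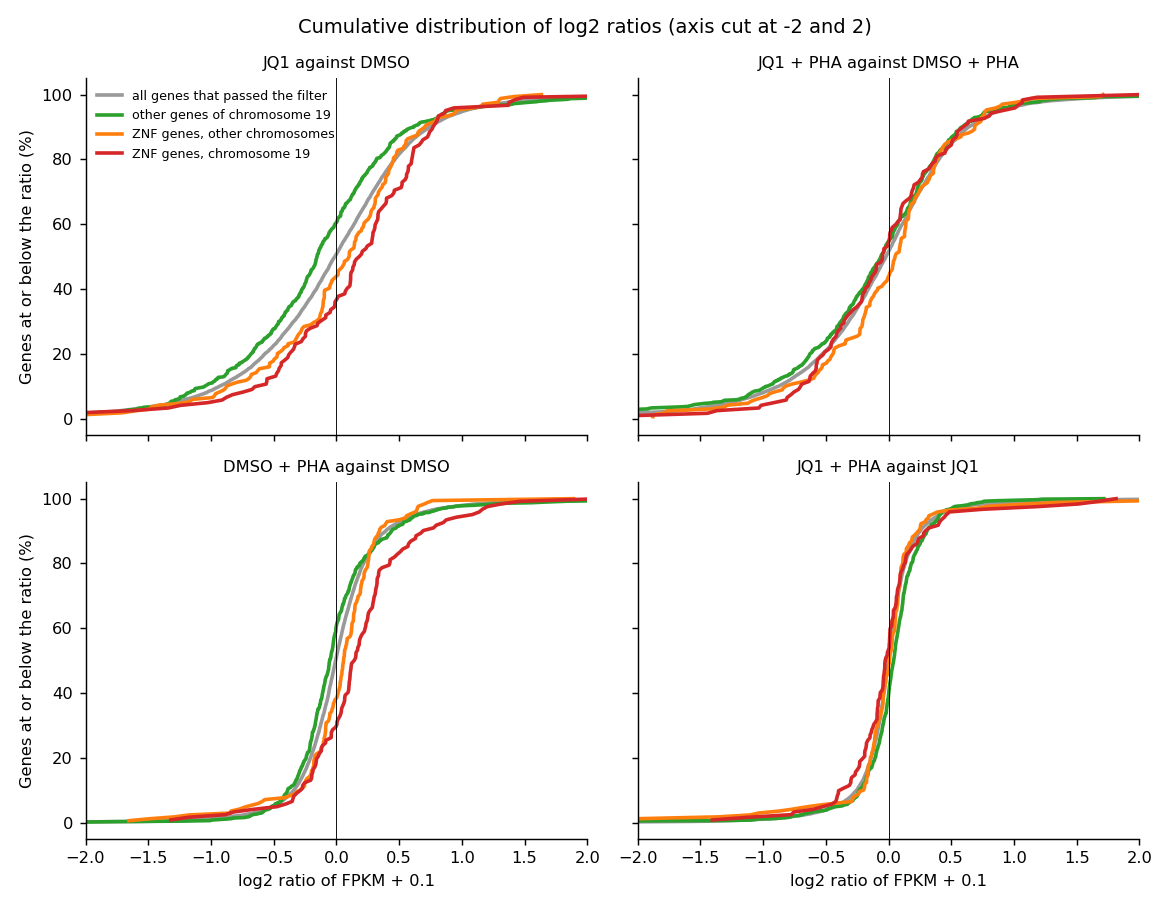
Cumulative distribution of log2 ratios of FPKM + 0.1 (x axis) as the percentage of genes at or below each ratio (y axis) in the 4 comparisons, for members (red, 122 genes), ZNF genes on other chromosomes (orange, 169), other genes of chromosome 19 (green, 637) and all measured genes (grey, 11503). Around the middle of the distribution the red line lies to the right of the others in JQ1 against DMSO and in DMSO + PHA against DMSO, where the members' medians were 0.19 and 0.15, but not throughout the tails.

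PHA alone, DMSO + PHA against DMSO, gave 7 members higher (5.74%; 2.1% of all measured genes) and 2 lower (1.64%; 1.19% of all measured genes). The median was 0.15, against -0.01 for all measured genes, and 86 of 122 members (70.5%) had a ratio above 0, against 48.9% of all measured genes. The ZNF genes elsewhere had a median of 0.06, with 62.1% above 0. Intervals lay above 0 for 51 members (41.8%; 24.7% of all measured genes) and below 0 for 18 (14.8%; 25.1% of all measured genes). The members lower were ZNF627 and ZNF766. With JQ1 present, JQ1 + PHA against JQ1 gave 4 members higher (3.28%; 1.04% of all measured genes) and 2 lower (1.64%; 1.03% of all measured genes). The 4 were ZNF227, ZNF845, ZNF579 and ZNF671, and the 2 were ZNF480 and ZNF440. The median there was -0.02, with intervals above 0 for 18 members (14.8%; 15.6% of all measured genes) and below 0 for 26 (21.3%; 15.7% of all measured genes).

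Both comparisons with a positive median share the DMSO library. The lowest FPKM of the 4 was in the DMSO library for 58 of the 122 members (47.5%), against 28.8% of all measured genes, 37.3% of the ZNF genes elsewhere and 20.6% of the other genes of chromosome 19. JQ1 held the lowest value for 26 members, DMSO + PHA for 19 and JQ1 + PHA for 19. With 1 library per condition, a property of the DMSO condition and a property of that 1 library cannot be told apart.

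**Figure D2:**
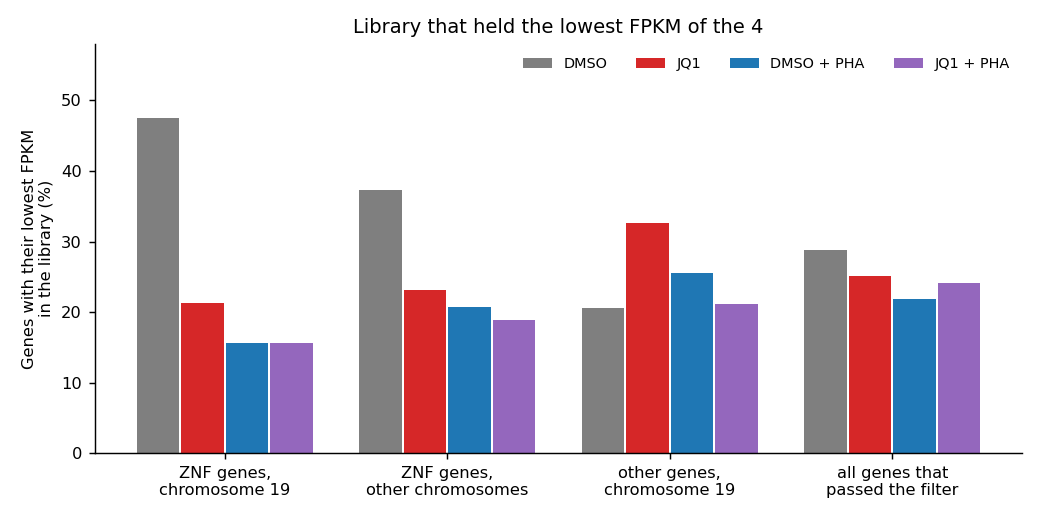
Percentage of measured genes (y axis) whose lowest FPKM of the 4 lay in each library (bar colour), for the members, ZNF genes on other chromosomes, other genes of chromosome 19 and all measured genes. DMSO held the lowest value for 47.5% of members and 20.6% of the other genes of chromosome 19.

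In at least 1 comparison 22 members (18%) lay past 2-fold, where 19% of all measured genes did. These are given by group.

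Members lower with JQ1 whether or not PHA was present were ZNF121 and ZNF101, which was 2 of 122 against 5.42% of all measured genes. ZNF121 (chr19:9560353-9584533, minus strand), a protein with 9 fingers and no KRAB A box pattern, had 3328 counts in DMSO, 1364 in JQ1, 3780 in DMSO + PHA and 1374 in JQ1 + PHA. Its FPKM values were 19.4, 7.60, 21.1 and 8.09, and the values with JQ1 lay well below those without. As a log2 ratio of count shares the JQ1 difference was -1.35 (95% interval from -1.44 to -1.26) in cells not given PHA, and -1.38 (from -1.47 to -1.29) in the cells given PHA. ZNF101 (chr19:19668796-19683509, plus strand), the first member of its cluster, was at 3.63, 1.48, 6.29 and 1.39 FPKM in the same order. The JQ1 values were again the lowest, and the log2 ratio was -1.30 (-1.48 to -1.12) without and -2.18 (-2.36 to -2.01) with PHA. ZNF101 was also 1.73-fold higher in DMSO + PHA than in DMSO.

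Higher with JQ1 in both comparisons were ZNF527 and ZNF780A, again 2 of 122, against 2.16% of all measured genes. ZNF527 (chr19:37371061-37393066, plus strand), a KRAB protein with 11 fingers, had 150, 479, 228 and 462 counts in DMSO, JQ1, DMSO + PHA and JQ1 + PHA. That is 0.736, 2.25, 1.07 and 2.29 FPKM, and the JQ1 log2 ratio was 1.61 (1.34 to 1.88) in cells not given PHA and 1.10 (0.87 to 1.33) under PHA. ZNF780A (chr19:40069152-40090938, minus strand), a KRAB protein with 17 fingers that lies outside the clusters, had 334, 962, 389 and 808 counts. Both JQ1 values were above both others, at 0.956, 2.63, 1.07 and 2.34 FPKM, and the log2 ratios were 1.46 (1.28 to 1.65) and 1.13 (0.96 to 1.31).

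**Figure D3:**
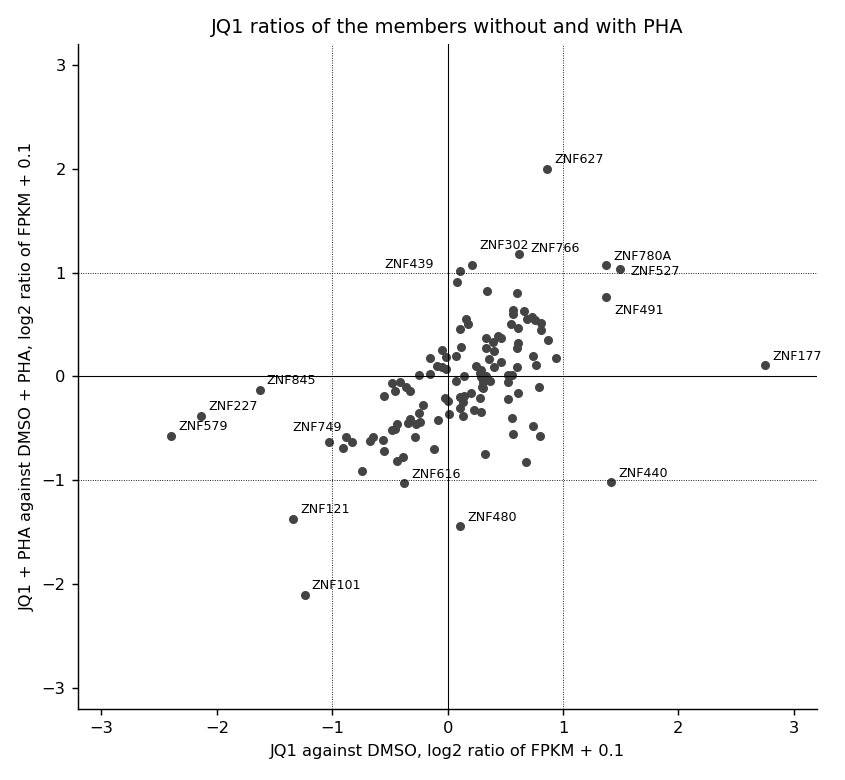
JQ1 against DMSO (x axis) and JQ1 + PHA against DMSO + PHA (y axis), as log2 ratios of FPKM + 0.1, for each measured member (point), with dotted lines at 2-fold and names for members past 2-fold on either axis. ZNF121 and ZNF101 lie at the lower left, ZNF527 and ZNF780A at the upper right, and ZNF440 alone at the lower right corner past both lines.

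ZNF440 (chr19:11814284-11835201, plus strand), a KRAB protein with 10 fingers, was past 2-fold in opposite directions. It had 207 counts in DMSO, 606 in JQ1, 562 in DMSO + PHA and 255 in JQ1 + PHA. Each agent alone thus went with the higher values (3.71 and 3.44 FPKM) and neither or both with the lower ones (1.32 and 1.65 FPKM). The log2 ratio for JQ1 was 1.49 (1.26 to 1.72) without and -1.06 (-1.28 to -0.84) with PHA, and for PHA 1.38 (1.14 to 1.61) without and -1.17 (-1.39 to -0.96) with JQ1. It was the 1 member with opposite calls in the JQ1 comparisons, seen in 0.217% of all measured genes, and in the PHA comparisons, seen in 0.226%. Its lower call with PHA lay just past the threshold, at -1.02 on the scale of FPKM + 0.1, and was lost at -0.97 with TMM and -0.96 with DESeq2 scaling.

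The JQ1 log2 ratio was at least 1 higher with PHA than without in 4 of 122 members, against 1.99% of all measured genes. It was at least 1 lower in 8 members, against 2.93% of all measured genes. Either way, it was 9.84% of members, 7.69% of the ZNF genes elsewhere and 4.92% of all measured genes. The 4 were ZNF579, ZNF227, ZNF845 and ZNF627. Among the 8, the farthest were ZNF177 at -2.63, ZNF440 at -2.43 and ZNF480 at -1.56. The median difference was -0.17 in members, -0.06 in the ZNF genes elsewhere and 0.00 in all measured genes.

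Several of these rested on 1 library. By a rule chosen after the values were seen, 1 library lay at least 2-fold below each of the others in 7 of 122 members. The rule was met by 1.90% of all measured genes. Of the 169 ZNF genes elsewhere, 1 met it in DMSO, 3 in JQ1, 2 in DMSO + PHA and 2 in JQ1 + PHA. The members low in JQ1 were ZNF579, ZNF227 and ZNF845. ZNF579, a protein with 8 fingers and no KRAB A box pattern, had 159 counts in DMSO, 26 in JQ1, 132 in DMSO + PHA and 82 in JQ1 + PHA, so that its log2 ratio was -2.68 (-3.34 to -2.07) without PHA and -0.61 (-1.02 to -0.20) with PHA. ZNF227 had 467, 96, 510 and 366 counts, and ZNF845, with 26 fingers, 297, 89, 352 and 304 counts. Their log2 ratios of JQ1 against DMSO were -2.35 (-2.68 to -2.03) and -1.80 (-2.16 to -1.46), while with PHA they were -0.40 (-0.60 to -0.20) and -0.13 (-0.36 to 0.09). The low value was therefore in the JQ1 library and not in JQ1 + PHA. ZNF227 overlaps ZNF235 and shares 15.9% of its 50-base words with other genes. ZNF845 overlaps ZNF525, which had 305, 394, 369 and 298 counts and was highest in the JQ1 library where ZNF845 was lowest.

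In JQ1 + PHA the low member was ZNF480, a KRAB protein with 10 fingers, with 1512, 1713, 1761 and 597 counts. Its first 3 values lay between 6.06 and 6.74 FPKM and the last at 2.42 FPKM. In DMSO + PHA the low members were ZNF627, with 362, 699, 159 and 643 counts, and ZNF766, with 520, 847, 204 and 466. Their log2 ratios of JQ1 + PHA against DMSO + PHA were 2.1 (1.84 to 2.36) and 1.27 (1.03 to 1.52), and of DMSO + PHA against DMSO -1.25 (-1.53 to -0.98) and -1.42 (-1.66 to -1.18). Both members lower with PHA alone were thus also among the 6 higher with JQ1 in the presence of PHA, through the same DMSO + PHA library. ZNF302 and ZNF439 had their lowest value in that library as well, at 1.21 and 0.730 FPKM, and completed the 6 with ZNF527 and ZNF780A. ZNF439 is a member, but the rule that picked genes to name did not pick it.

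In DMSO the low member was ZNF177, with 16 counts in DMSO, 157 in JQ1, 98 in DMSO + PHA and 101 in JQ1 + PHA. Its log2 ratio of 3.23 (2.49 to 4.07) for JQ1 and of 2.55 (1.78 to 3.41) for PHA rest on those 16 counts. The readthrough gene ZNF559-ZNF177, annotated over the same locus, had 93, 120, 75 and 69 counts, and ZNF177 shares 43.3% of its 50-base words with other genes, so how its reads were divided between both is uncertain.

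ZNF491, ZNF749 and ZNF616 were past 2-fold in 1 of the JQ1 comparisons. ZNF491 was at 1.52, 4.11, 1.92 and 3.32 FPKM in DMSO, JQ1, DMSO + PHA and JQ1 + PHA, higher in both JQ1 libraries and past 2-fold without PHA. ZNF749, a member left out by the rule that picked genes to name, was at 5.75, 2.77, 6.04 and 3.86 FPKM. ZNF616 was at 3.07, 2.34, 3.92 and 1.86 FPKM. Both had their lower pair of values in the JQ1 libraries. ZNF749 was past 2-fold without PHA at -1.05 (-1.29 to -0.82) and ZNF616 with PHA at -1.07 (-1.28 to -0.86), a call that TMM and DESeq2 scaling ended at -0.99 and -0.98 on the scale of FPKM + 0.1.

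Among members higher with PHA, ZNF671 was the 1 past 2-fold with and without JQ1, where 0.235% of all measured genes were. It had 101 counts in DMSO, 137 in JQ1, 253 in DMSO + PHA and 315 in JQ1 + PHA, so both PHA values lay above both others. Its log2 ratio for PHA was 1.26 (0.92 to 1.61) without and 1.28 (0.99 to 1.58) with JQ1. No member was lower with PHA in both, where 0.156% of all measured genes were.

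The rest of the 7 that were higher with PHA alone were ZNF177, ZNF440, ZNF548, ZNF792, ZNF443 and ZNF43. ZNF548 was at 0.946, 1.57, 2.78 and 1.54 FPKM, and ZNF43, a KRAB gene known for expression in lymphoid cells, at 1.04, 1.32, 2.32 and 1.33 FPKM. In each the DMSO + PHA value stood above the other 3, with log2 ratios to DMSO of 1.56 (1.32 to 1.80) and 1.15 (0.99 to 1.32). ZNF443 was at 1.75, 1.90, 4.05 and 3.27 FPKM, with both PHA values high, and shares 35.2% of its 50-base words with other genes. ZNF792 had 72, 117, 190 and 133 counts.

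Members were also read by position. Neighbouring members under 1 Mb apart were joined, which gave 9 clusters of at least 5 members with 250 of the 262, and the clusters were numbered along the chromosome. Gene coordinates are those of the files, on GRCh38.

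Cluster 3, at 11.48 to 12.64 Mb, had 28 members, none of them at 0 in all libraries, and 17 measured. Of the 17, 16 had a log2 ratio of JQ1 against DMSO above 0, from -0.33 for ZNF700 to 1.42 for ZNF440, with a median of 0.69. Ratios above 0 were held by 63.9% of all measured members and 49.2% of all measured genes. Many of the 17 share 10.9% (ZNF700) to 47.2% (ZNF788) of their 50-base words with other genes. Their reads may be interchanged, so the 16 are not that many separate measurements. The members that share 8.02% or less all had ratios above 0, from 0.11 (ZNF439) to 1.42 (ZNF440). The summed counts of the cluster were 4713 in DMSO, 7002 in JQ1, 6235 in DMSO + PHA and 6182 in JQ1 + PHA. DMSO was the low library, and it held the lowest value for 13 of the 17. The log2 ratio of the sums was 0.51 (0.45 to 0.56) for JQ1 and 0.34 (0.28 to 0.39) for PHA alone. With PHA present the JQ1 ratio of the sums was 0.07 (0.02 to 0.12) and the median of the 17 members was 0.11. ZNF700, the highest member of the cluster, went the other way, at 8.56, 6.80, 9.17 and 6.86 FPKM in DMSO, JQ1, DMSO + PHA and JQ1 + PHA.

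Cluster 4, at 19.67 to 24.13 Mb, had 41 members, of which 12 were at 0 in all libraries and 14 were measured. The median log2 ratio of JQ1 against DMSO was 0.41, and 12 of the 14 were above 0. The summed counts were 9944, 13361, 13209 and 12659 in the same order, so DMSO was again the low library. With PHA the JQ1 median was 0.22. ZNF101, at the edge of the cluster, had the lowest ratio in both JQ1 comparisons, while ZNF100, the highest member, was at 8.03, 8.72, 6.99 and 8.5 FPKM.

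Clusters 1, 5 and 6 had median ratios of JQ1 against DMSO of -0.08, -0.05 and 0.04, on 3, 5 and 10 measured members. ZNF77, the highest of cluster 1, was at 4.25, 4.0, 4.56 and 3.39 FPKM, and ZNF302, the highest of cluster 5, at 2.31, 2.68, 1.21 and 2.64. Cluster 6 held ZNF146, with 5606 of its 11492 counts in DMSO, and ZNF527. Cluster 2, at 7.07 to 9.79 Mb, spanned -1.34 (ZNF121) to 2.75 (ZNF177) around a median of 0.25 on 12 measured members.

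Cluster 7, at 43.53 to 45.08 Mb, was the least used, with 6 of 25 members measured and 9 at 0 in all libraries. Its median was -0.21 for JQ1 against DMSO and -0.22 with PHA. Clusters 8 and 9, at 51.57 to 53.58 and 55.48 to 58.48 Mb, were the biggest, with 43 and 60 members and 19 and 31 measured. Their medians were 0.20 and 0.14 for JQ1 against DMSO and -0.16 and -0.16 with PHA. ZNF761, the highest of cluster 8, was at 4.75, 5.79, 5.95 and 6.08 FPKM. ZNF776, the highest of cluster 9, was at 5.11, 7.85, 5.30 and 7.36 FPKM and had both JQ1 values above both others.

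**Figure D4:**
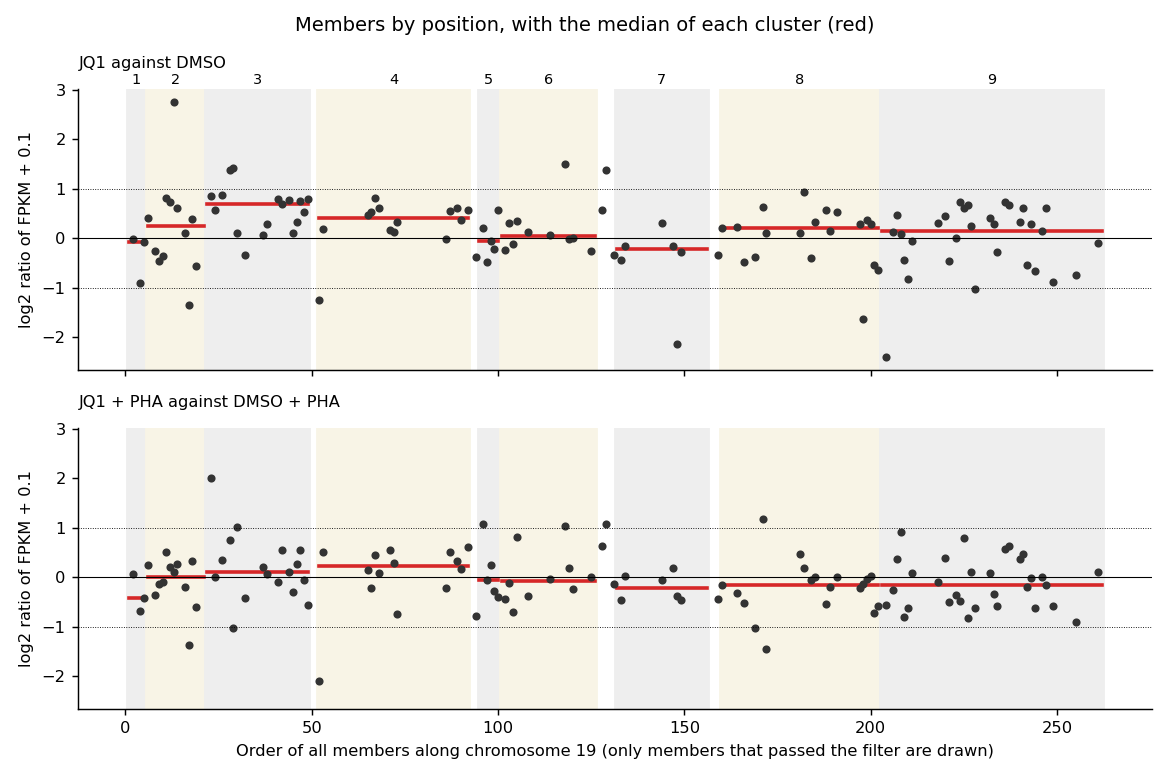
Log2 ratio of FPKM + 0.1 (y axis) of each measured member (point) by its order along chromosome 19 (x axis), for JQ1 against DMSO (top) and JQ1 + PHA against DMSO + PHA (bottom), with clusters 1 to 9 shaded and their medians in red. The median of cluster 3 is 0.69 at the top and 0.11 at the bottom.

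Members were split by the KRAB A box pattern. The pattern is strict and was searched only in the main annotated transcript of each gene. A protein without a match may therefore still hold a KRAB domain. The median of JQ1 against DMSO was 0.29 for the 86 measured members with it and -0.09 for the 33 without it. With PHA the medians were -0.04 and -0.19. All 7 members higher with PHA alone carried the pattern, as did most measured members. Of the members lower with JQ1, 2 carried it and 4 did not in the comparison without PHA, and 3 did and 2 did not in the comparison with PHA.

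Members with a described role were read one by one. ZNF91, which silences SVA retrotransposons and has 31 fingers, was at 1.81, 2.69, 2.20 and 3.16 FPKM in DMSO, JQ1, DMSO + PHA and JQ1 + PHA. Both JQ1 values were above both others, with log2 ratios of 0.57 (0.42 to 0.72) and 0.52 (0.39 to 0.66). ZNF93, which binds LINE-1 elements, had 4, 8, 5 and 1 counts, too few to compare. ZNF611, which also binds SVA elements, was at 0.904, 1.82, 1.40 and 1.60 FPKM, lowest in DMSO. ZNF331, an imprinted gene, was at 2.11, 1.31, 1.49 and 0.964 FPKM. It was lower with JQ1 at -0.69 (-0.87 to -0.52) without and -0.63 (-0.83 to -0.42) with PHA, and lower with PHA at -0.50 (-0.67 to -0.34).

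ZNF260, a regulator described in heart muscle, was at 4.80, 4.42, 4.20 and 2.54 FPKM, with JQ1 + PHA apart. ZNF224, a partner of WT1, was at 2.62, 3.26, 3.65 and 3.52 FPKM, lowest in DMSO. ZNF350, a partner of BRCA1, stayed between 1.17 and 1.49 FPKM, and all 4 of its intervals reached 0. ZNF274, which brings SETDB1 to zinc finger genes, was under the filter at 0.622, 0.603, 0.730 and 0.652 FPKM, and ZNF382 at 0.936, 0.872, 1.05 and 1.06. ZNF85 had 16, 14, 4 and 13 counts. ZNF649 had 0 counts in all libraries. By 3 counts this allows up to 0.159, 0.152, 0.152 and 0.161 CPM (counts scaled to library size), if its reads were counted for it. It overlaps ZNF613, which had 230, 194, 86 and 63 counts, so how reads were divided between both is uncertain.

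Of the 140 members under the filter, 6 lay past 2-fold in the same direction in both JQ1 comparisons. They were named after their values were seen. No share over all genes under the filter stands beside this count, so it is not read as a trait of the members. ZNF66 had 27, 85, 43 and 94 counts, with log2 ratios of count shares of 1.59 (0.95 to 2.27) and 1.21 (0.67 to 1.76). ZNF814 had 46, 170, 63 and 167 counts. ZNF880, with 3, 42, 6 and 23 counts, and ZNF137P, with 3, 14, 2 and 16, were also higher in the JQ1 libraries, on few counts, and ZNF861P had at most 2 counts. ZNF497 went the other way, with 31, 0, 47 and 7 counts. By count shares, which the added 0.1 does not shrink, further members were past 2-fold in both JQ1 comparisons. Lower were, among others, ZNF790 (153, 76, 174 and 60 counts, -1.07 and -1.46) and ZNF383 (173, 73, 163 and 74 counts, -1.31 and -1.06). ZNF585B was higher, on 1, 18, 3 and 13 counts. ZNF66 and ZNF814 both share over 10% of their 50-base words with other genes (12.8% and 23.5%).

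A fixed list of 22 co-repressor genes, which also holds general chromatin enzymes, was measured in full, 22 of 22. None of the 22 was past 2-fold in 3 of the comparisons, and in JQ1 + PHA against DMSO + PHA 1 was, CBX5 (HP1 alpha), at 52.6, 102, 54.2 and 110 FPKM in DMSO, JQ1, DMSO + PHA and JQ1 + PHA, where 3.69% of all measured genes were higher. CHD3, a subunit of the NuRD complex, was just short of 2-fold lower in JQ1 against DMSO, at 36.8, 18.7, 27.3 and 18.5 FPKM. TRIM28 was at 27.3, 30.2, 24.2 and 33.1 FPKM and SETDB1 at 6.07, 4.84, 5.90 and 5.36 FPKM. Over the 22 genes of the list the median was -0.21 for JQ1 alone, 0.03 for JQ1 under PHA, -0.04 for PHA alone and 0.01 for PHA under JQ1. A list of 21 other zinc finger genes that carry other symbols was also read. It held ZKSCAN1, which lies on chromosome 7 and was not kept, and ZFP112, which was not found under that symbol. The other 19 lie on chromosome 19, and 7 were measured, such as MZF1 at 2.72, 4.37, 2.79 and 3.85 FPKM. Of these, 0 were past 2-fold in any comparison.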

How the data were processed

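RNA of 4 Jurkat samples, 1 library per condition, was sequenced on an Illumina HiSeq2500. The authors deposited, for each library, read counts per gene (not normalized) and FPKM, which scale the counts by gene length and library size, on GRCh38. The submitters' processing notes name TopHat2 2.0.9 and Cufflinks 2.1.1 and the labels Hisat2 2.0.4. The labels name a VAHTS Universal kit and the study's methods a VAHTS Stranded kit. The counting program and whether strand was used in counting are not given in the sources used here, so reads of overlapping or antisense genes cannot be told apart. Depth was 18620954 to 19685401 counts, and 3 counts correspond to 0.152 to 0.161 CPM. FPKM implies a gene length, which exceeded the span of the locus for 15 of the 228 members with counts.

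Members and gene lists were chosen with earlier results of these data known. Genes with a mean of at least 1 FPKM over the 4 libraries (11503) were kept, 0.1 was added to each FPKM before the log2 ratio was taken, and a ratio past 2-fold was a call. The 95% intervals (Clopper-Pearson, exact) on ratios of count shares cover counting error only. The design had foreseen no test, since each condition had 1 library, and no p-value was computed. Genes were named by rule: the 5 highest members, up to 5 rises and 5 falls per comparison, calls shared by both JQ1 comparisons, the highest measured member per cluster, the 5 largest differences between JQ1 ratios, 13 members with a described role, the co-repressors and 4 label checks, which gave 38 members. Identifiers were matched to GENCODE 44 (49659 of 50868, all 262 members on chromosome 19). Fingers were counted by C, 2 residues, C, 12 residues, H, 3 to 5 residues, H. Python 3.11.15, pandas 2.3.3 and scipy 1.17.1 were used. Scaling factors of edgeR 4.0.16 (TMM) and DESeq2 1.42.0 served as alternatives only. Other pseudocounts, filters, folds, centring, lengths and cluster gaps were also tried. The ratio and interval code was tested on simulated data.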

Additional observations from a re-analysis of the deposited data

Results flagged for a closer look

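ZNF440 stood out because its ratios lay past 2-fold in opposite directions under the same contrast. JQ1 went with a higher level without PHA and a lower level with PHA, and PHA did so without and with JQ1, so that the log2 ratio of FPKM + 0.1 differed by -2.43 in both readings, which are the same 4 values read in 2 ways. The lower call with PHA (-1.02) ended with TMM (-0.97) and DESeq2 (-0.96) scaling, where the ratio stayed below 0. The difference was not tested, since each condition had 1 library.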

How the results depend on the processing

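Of 138 recomputed summary values 86 kept their size and 52 moved (medians by at least 0.1 log2, counts by over 1.5 times), and of 792 recomputed ratios of named genes 739 lay within the counting interval and 0 reversed. Counts of members past 2-fold, higher and lower, for JQ1 without PHA, JQ1 with PHA, PHA without JQ1 and PHA with JQ1, were in turn 5 and 6, 6 and 5, 7 and 2, and 4 and 2. At a mean of at least 0.1 FPKM they were 12 and 11, 12 and 11, 10 and 4, and 8 and 5, with no filter 13 and 11, 13 and 11, 10 and 4, and 8 and 5, and at a mean of at least 5 FPKM 0 and 1, 0 and 2, 0 and 0, and 0 and 1. At 1.5-fold they were 27 and 12, 13 and 17, 17 and 5, and 5 and 5, and at 3-fold 1 and 3, 1 and 1, 1 and 0, and 2 and 0. With a pseudocount of 1 they were 3 and 3, 1 and 3, 0 and 0, and 0 and 1. With GENCODE 44 exon lengths, an alternative chosen after seeing the data that left 153 members measured, they were 6 and 10, 7 and 8, 8 and 3, and 8 and 5. TMM and DESeq2 scaling each left 3 members lower for JQ1 with PHA, losing ZNF440 and ZNF616, and took the members' median there from -0.05 to 0.00 and 0.01. Without a filter the median of JQ1 against DMSO fell to 0.07. Wider filters and lower folds act on the counts by construction. No paired analysis was possible because each condition had 1 library and no replicate to pair, and for the same reason no library could be left out. Ratios on few counts have the widest intervals.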
